A study of Rattus norvegicus with 12 samples.

Results

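The cyclic nucleotide phosphodiesterases described here are Pde1b, Pde2a, Pde4a, Pde4b, Pde4d, Pde7b, Pde8b and Pde10a, measured in the striatum of rats after carbon monoxide (CO) or low oxygen. The members were chosen as 8 phosphodiesterase genes of striatum, and their probes were taken by the gene name that the scanner files or a current gene table give them. They had 11 probes among 40998 on the array, where 16267 genes had a name. Pde4d had 4 probes and each of the other genes had 1. Every probe is shown, and all 11 were well above background on 12 of 12 arrays.

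Male Sprague-Dawley rats of 235 to 265 g breathed air, CO at 1000 or 3000 ppm, or 5% O2 for 40 min, and were anaesthetised with pentobarbital (50 mg/kg) at a set number of hours later. The brain was perfused with saline, and the striata of both sides were taken for total RNA. Striata were collected right after exposure (0 h) for every gas, at 2, 6 and 12 h for the CO concentrations, and at 2 and 6 h for 5% O2. Each group was 1 rat on 1 one-colour Agilent array, so no group has a replicate, the air array is the reference of every comparison with air, and all such comparisons share it. There was no air rat at 2, 6 or 12 h.

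Phosphodiesterases hydrolyse the second messengers cAMP and cGMP and so end the signals that adenylyl and guanylyl cyclases start. In the striatum the medium spiny neurons, the GABAergic projection neurons that make up most of its nerve cells, are rich in Pde10a and Pde1b, which act on both messengers. Pde2a also takes both and is stimulated by cGMP, while the Pde4, Pde7 and Pde8 families act on cAMP.

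The probes define which part of each transcript was read, and those of the genes that the results turn on are shown first. Each is a 60-base oligonucleotide, and its first 30 bases are given from the 5′ end in lower case as the scanner files list them. The positions are on the rat build rn4 as deposited, and no annotation of that build was used here, so exon or untranslated position is not given.
Pde10a probe: accaggcccagcaactagcaaaagcacatc
Pde1b probe: tagcactatccatcaggactggttccccca
Pde2a probe: gatcgggagaaggcctacatccctgaactt
Pde7b probe: gagactggaaaatatacaggacagacactt
Pde8b probe: gggacttcaacatctttgaattggaagcta
The Pde10a probe lies at chr1:46393649-46393706 on the minus strand, the Pde1b probe at chr7:142427529-142427588 on the plus strand and the Pde2a probe at chr1:159012158-159012217 on the plus strand. The Pde7b probe spans chr1:15713515-15714681 and the Pde8b probe chr2:25373015-25373927, both on the minus strand. These last spans of 1167 and 913 bases are longer than the 60-base probe, so each of these probes matches the genome in pieces.

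The 4 Pde4d probes are shown because the files name them all Pde4d, they hold different sequences, and they can be set beside each other on the same RNA.
Pde4d probe 1: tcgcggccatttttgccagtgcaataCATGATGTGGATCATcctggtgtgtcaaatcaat
Pde4d probe 2: gtcgcagacgattgttgtcctgacacgtaa
Pde4d probe 3: tgaagtggataatccgcatgttccaaaccc
Pde4d probe 4: agttttcagtacggatcagtactacactgg
Probe 1 is printed whole, and its capitals mark the bases that encode a metal-binding motif of the catalytic domain, the part of the enzyme that cleaves cAMP. The files place probes 1, 2 and 3 on an unplaced rn4 contig named chr18_random, at 266188 to 266247, 268765 to 268824 and 264941 to 265000. Probe 4 lies at chr2:41312606-41312665 on the plus strand. These rn4 placements differ between probes of 1 gene name, and RefSeq has Pde4d on chromosome 2 of GRCr8. The placements were not checked against a genome here.

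Levels are given as log2 of the processed fluorescence signal minus the 75th percentile of the same array, so a spot at that percentile has a level of 0. A level can be compared between arrays for 1 probe, but not between probes, whose brightness per transcript differs. Arrays had a 75th percentile of 463.5 to 805.8 signal units, with 72.9 to 78.7% of spots well above background and none saturated.

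The 12 striata did not hold the same amount of medium spiny neuron RNA, and 2 arrays stood apart. All 15 of 15 markers of these neurons were measured on every array. Their summed signal, in units of each array's 75th percentile, was 308.7 on the air array, 39.4 on the 5% O2 array at 0 h and 160.4 on the 1000 ppm CO array at 6 h, and from 320.0 to 609.7 on the other 9 arrays. Against air, 15 of 15 markers were at least 2-fold lower on the 5% O2 array at 0 h (5.05% of all probes). On the 1000 ppm CO array at 6 h 6 of 15 were (6.99% of all probes). The D1 and D2 dopamine receptor genes Drd1 and Drd2 differed from air by -3.98 and -3.19 on the former and by -0.91 and -1.10 on the latter. The adenosine receptor gene Adora2a (-3.63 and -0.82) and the dopamine-regulated phosphatase inhibitor Ppp1r1b (-3.27 and -0.33) were low there too.

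Markers of neurons next to the striatum had their highest summed signals on the same 2 arrays. For the 12 markers of septal, thalamic and hypothalamic neurons this sum was 149.3 on the 1000 ppm CO array at 6 h and 140.5 on the 5% O2 array at 0 h, against 33.8 on the air array and 7.7 to 69.8 on the others. The thalamic glutamate transporter gene Slc17a6 was 1.38 and 2.02 above air on these arrays, and the hypothalamic peptide gene Pmch 6.39 and 5.98. Of the 12 markers 6 and 5 were at least 2-fold above air there, with medians of 0.99 and 0.77. Of all probes 9.63 and 9.13% were at least 2-fold from air in either direction. These shares include the 6.99 and 5.05% of all probes that were lower, so the shares above air were smaller. Others of the 12 markers, such as Trpc4 (-0.41 and -0.25) and Lhx2 (-0.22 and -0.33), were below air. For choroid plexus and ependyma markers the sums were 333.2 and 179.6, within the range of 3.6 to 494.3 over all arrays, of which the air array had the highest, with the choroid plexus gene Ttr at -0.58 and -1.39 from air. In bulk tissue, fewer cells of a type and less RNA per cell cannot be told apart. Of the other lists, the median difference from air on the 5% O2 array at 0 h and the 1000 ppm CO array at 6 h was 0.58 and 0.42 for 8 oligodendrocyte markers, 0.16 and 0.06 for 7 astrocyte markers, -0.09 and -0.24 for 7 microglia markers, 0.29 and 0.02 for 8 endothelium and blood markers, and -0.08 and -0.50 for 8 cortical neuron markers. How far the mix of tissue in each dissection bears on the phosphodiesterase levels was not tested, so results are given with and without these 2 arrays.

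Pde10a, Pde1b, Pde2a, Pde7b and Pde8b formed 1 pattern: each had its lowest level on the 5% O2 array at 0 h and its second lowest on the 1000 ppm CO array at 6 h. Among the 27929 probes above background on every array, 8.48% had these same 2 arrays at the bottom, against 5 of 11 phosphodiesterase probes. On the 5% O2 array at 0 h the 5 genes were between 1.34 and 2.74 below air on the log2 scale. Pde4a, Pde4b and the 4 Pde4d probes did not have that pattern. For Pde7b and Pde8b the second low point depended on the background correction of that array, as given with the differences from air.

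**Figure D1:**
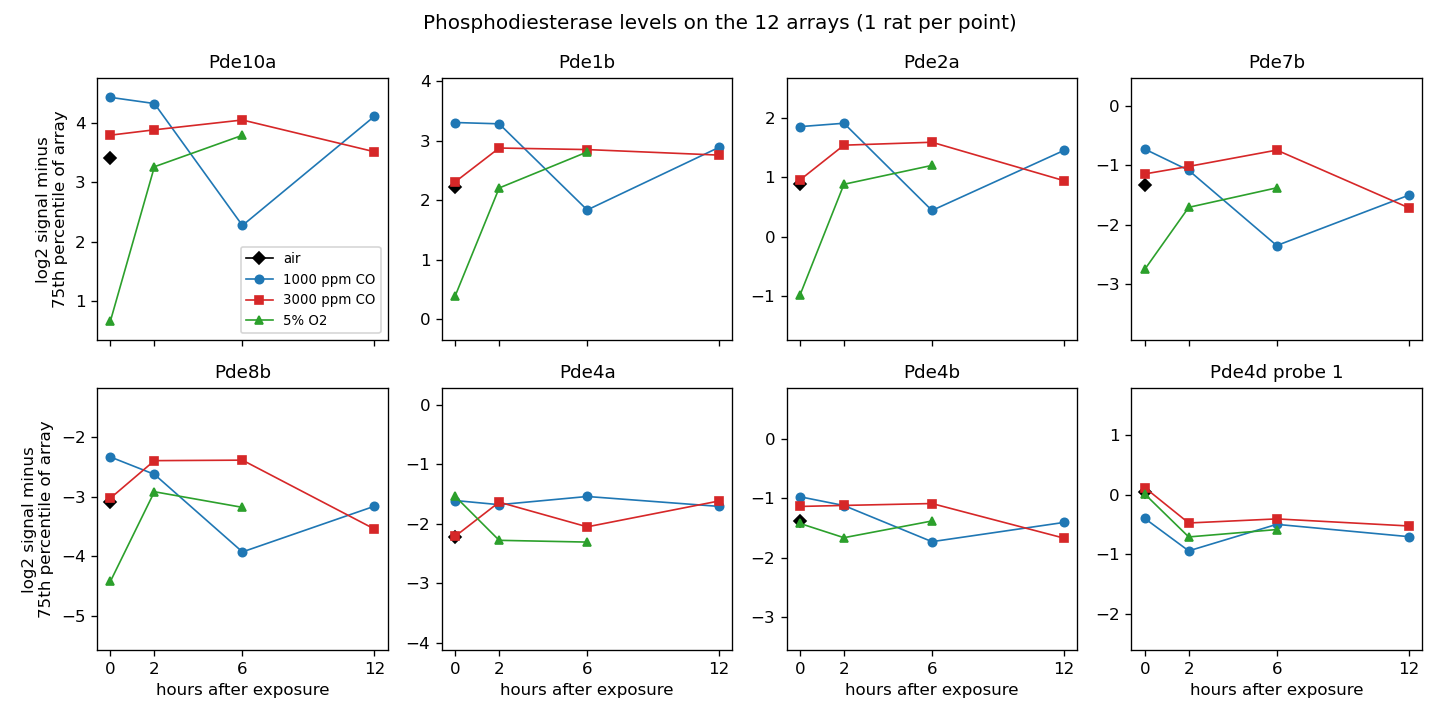
Level of each gene (log2 processed signal minus the array's 75th percentile) against hours after exposure, 1 rat per point, with Pde4d shown by probe 1 and all panels spanning the same number of log2 units. The first 5 panels share a low point on 5% O2 at 0 h (0.66 for Pde10a) and a less low one on 1000 ppm CO at 6 h (2.27 for Pde10a). With normexp background correction Pde7b and Pde8b were above air at that 6 h point. The panels of Pde4a, Pde4b and Pde4d do not share both, though Pde4b was lowest on 1000 ppm CO at 6 h (-1.73).

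Pde10a hydrolyses cAMP and cGMP and is carried mostly by medium spiny neurons. Its level was 3.40 on the air array and 4.43, 4.32, 2.27 and 4.11 on the arrays of 1000 ppm CO, in the order 0, 2, 6 and 12 h (0, 2 and 6 h for 5% O2) that is used throughout. The 3000 ppm CO arrays gave 3.79, 3.88, 4.05 and 3.51 in the same order, and those of 5% O2 gave 0.66, 3.26 and 3.79. The 5% O2 array at 0 h was thus the lowest by 1.61, more than the residual standard deviation (SD) of 1.24 in the additive model (5 residual degrees of freedom). None of the other 10 gaps between neighbours in the order of levels passed that SD. The SD is what remains after exposure and time are fitted, with the low array included. It does not measure the spread between rats, and gaps set against it cannot be compared between genes. Over the 12 arrays the level ranged over 3.76, and over 1.17 without the 2 low arrays.

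Pde1b is the phosphodiesterase that calcium and calmodulin activate in striatal neurons. It stood at 2.23 on the air array, at 3.31, 3.29, 1.84 and 2.89 with 1000 ppm CO and at 2.31, 2.88, 2.85 and 2.76 with 3000 ppm CO. The 5% O2 levels were 0.39, 2.21 and 2.81. Again 1 gap in the order of levels, 1.45 between the lowest array and the next, passed the residual SD of 0.88. The range of 2.92 over 12 arrays was 1.10 over the 10 others.

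Pde2a, whose cAMP hydrolysis cGMP speeds up, had a level of 0.89 in air. It was 1.85, 1.91, 0.44 and 1.45 with 1000 ppm CO, 0.96, 1.54, 1.59 and 0.95 with 3000 ppm CO, and -0.98, 0.88 and 1.20 with 5% O2. The lowest array was 1.43 below the next, with a residual SD of 0.83, and the other neighbours in the order were closer than that. Its range was 2.89 with the 2 low arrays and 1.03 without them.

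Pde7b is a cAMP-specific enzyme. Its level was -1.33 on the air array, then -0.73, -1.08, -2.35 and -1.50 with 1000 ppm CO, -1.15, -1.02, -0.74 and -1.71 with 3000 ppm CO, and -2.75, -1.71 and -1.38 with 5% O2. Pde8b, a high-affinity cAMP enzyme, was at -3.08 in air, at -2.33, -2.62, -3.93 and -3.16 with 1000 ppm CO, at -3.02, -2.39, -2.38 and -3.54 with 3000 ppm CO, and at -4.42, -2.92 and -3.18 with 5% O2. Both genes had the same 2 lowest arrays as Pde10a, but neither had a gap between neighbours larger than its residual SD (0.72 for each), the largest being 0.63 for Pde7b and 0.50 for Pde8b. Without the 2 low arrays their ranges went from 2.02 to 0.99 and from 2.09 to 1.21. In both, the 3000 ppm CO array at 12 h was among the 4 lowest.

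Pde4a, a cAMP-specific enzyme of the rolipram-sensitive family, had its highest level on the 2 arrays where the preceding genes were lowest. It was at -2.23 in air, at -1.61, -1.68, -1.54 and -1.71 with 1000 ppm CO, at -2.21, -1.64, -2.05 and -1.62 with 3000 ppm CO, and at -1.54, -2.28 and -2.31 with 5% O2. All 4 arrays of 1000 ppm CO were in the upper part of the order and air and the later 5% O2 arrays in the lower, but the largest gap of 0.34 was no more than the residual SD of 0.34. Pde4b, of the same family, ranged over 0.76, from -1.73 on 1000 ppm CO at 6 h to -0.97 on 1000 ppm CO at 0 h, with air at -1.38. It was -1.42 on the 5% O2 array at 0 h, 0.04 from air.

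Pde4d, the third gene of that family here, was lower at 2 h than at 0 h after each exposure by each of its 4 probes. Probe 1 was at 0.04 in air, at -0.40, -0.94, -0.50 and -0.70 with 1000 ppm CO, at 0.12, -0.47, -0.41 and -0.52 with 3000 ppm CO, and at 0.01, -0.71 and -0.58 with 5% O2. Its 3 highest arrays were all taken at 0 h, and a gap of 0.41, against a residual SD of 0.14, parted them from the fourth, which was 1000 ppm CO at 0 h. Probe 2 was at -0.55 in air, at -0.55, -1.0, -0.70 and -0.83 with 1000 ppm CO, at -0.67, -1.0, -0.81 and -0.74 with 3000 ppm CO, and at -0.26, -0.98 and -0.79 with 5% O2. The 4 arrays taken at 0 h, air included, were its highest.

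Probes 3 and 4 gave the same order of 0 and 2 h. Probe 3 was at -3.06 in air, at -2.56, -3.30, -3.43 and -3.73 with 1000 ppm CO, at -2.48, -2.75, -3.0 and -3.60 with 3000 ppm CO, and at -2.88, -3.61 and -3.20 with 5% O2. Probe 4 was at -3.26 in air, at -3.23, -3.74, -3.60 and -3.96 with 1000 ppm CO, at -3.32, -3.58, -3.69 and -3.47 with 3000 ppm CO, and at -3.27, -4.17 and -3.59 with 5% O2. The probes parted at 12 h after 3000 ppm CO, where probe 3 was 1.11 below its 0 h level and probes 2 and 4 were 0.07 and 0.15 below theirs.

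Set against air, 11 of the differences between a phosphodiesterase probe and its air level reached 2-fold, and 5 of these were on the 5% O2 array at 0 h. There Pde10a was 6.66-fold lower (-2.74), Pde2a 3.65-fold (-1.87), Pde1b 3.57-fold (-1.84), Pde7b 2.69-fold (-1.43) and Pde8b 2.53-fold lower (-1.34). Of all 32475 probes compared on that array 9.13% were at least 2-fold from air and 5.05% at least 2-fold lower. Pde4a was 0.69 above air, and Pde4b and the Pde4d probes were within 0.29 of it. No p-value can be given, since each side of such a difference is 1 rat.

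On the 1000 ppm CO array at 6 h, Pde10a was 1.13 and Pde7b 1.02 below air, which made 2 of 11 probes at least 2-fold lower. Of 31895 probes, 9.63% were 2-fold from air there and 6.99% lower. Pde8b was at -0.85, Pde2a at -0.44, Pde1b at -0.39 and Pde4b at -0.34. With normexp background correction of the raw signals Pde7b was 0.19, Pde8b 1.11, Pde4b 0.47 and Pde4d probes 2, 3 and 4 0.05, 1.12 and 1.34 above air on this array, while Pde10a, Pde2a and Pde1b stayed below it at -1.51, -0.55 and -0.62. That correction also moved the median of all probes on this array from -0.05 to 0.61, so its values for dim probes are to be read against that shift.

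The remaining 2-fold differences were upward and on the 1000 ppm CO arrays at 0 and 2 h. Pde1b was 1.08 and Pde10a 1.03 above air at 0 h, and Pde1b was 1.06 and Pde2a 1.02 above it at 2 h, which is 2 of 11 probes each time. At 0 h 9.61% of 31463 probes were 2-fold from air and 3.5% higher, and at 2 h 11% of 31733 and 4.48% higher. The median marker of medium spiny neurons was also above air on these arrays, by 1.04 and 0.91. All 9 choroid plexus and ependyma markers were at least 2-fold lower than air on each of them. Their medians of -6.10 and -5.33 are bounds, since the genes at the median were dim there and set to the array's floor. At least 2-fold lower were also 9 and 8 of 12 markers of septal, thalamic and hypothalamic neurons (medians -1.91 and -2.05). The part of these tissue markers in the differences was not tested. No probe reached 2-fold on the 3000 ppm CO arrays, where 4.04, 6.02, 6.87 and 8.67% of probes did at 0, 2, 6 and 12 h, nor on the later 5% O2 arrays (4.17 and 4.2%) or 1000 ppm CO at 12 h (8.02%). Without the 5% O2 array at 0 h the count of 11 became 6, and without both low arrays it was 4. All 11 lay on arrays of other slides and another scan session than the air array. Within such a difference, exposure cannot be told apart from slide or scan session.

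**Figure D2:**
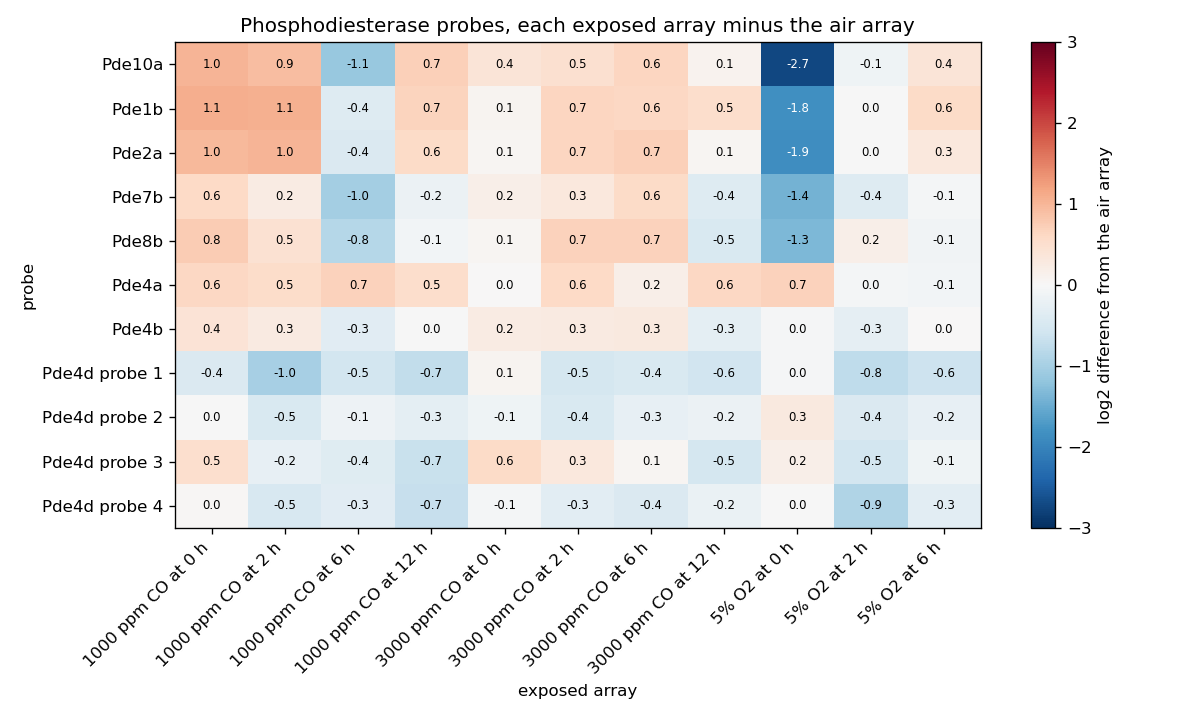
Log2 difference of each exposed array (columns, 1 rat each) from the 1 air array for the 11 probes (rows), with blue for lower, red for higher and the value in each cell. The darkest column is 5% O2 at 0 h, with -2.7 for Pde10a and differences within 0.3 of 0 for Pde4b and the Pde4d probes, and on 1000 ppm CO at 6 h Pde7b, Pde8b, Pde4b and Pde4d probes 2 to 4 lie on the other side of air with normexp background correction.

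With 1 rat per group, exposure and time were tested as additive factors over all 12 arrays. In limma's fit over 32230 probes, 0 of 99 combinations of a phosphodiesterase probe and a contrast (11 probes, 9 contrasts) passed a Benjamini-Hochberg adjusted p of 0.05, with the lowest adjusted p at 0.20. At an unadjusted p under 0.05 there were 12 of 99, and all 12 were Pde4d probes: 4 at 2 h, 2 at 6 h and 3 at 12 h against 0 h, where 3.67, 2.72 and 5.58% of all probes had such a p. Of the others, 1 each was in 3000 minus 1000 ppm CO (19.1% of all probes), 3000 ppm CO minus 5% O2 (14.6%) and 3000 ppm CO minus air (4.37%), and 0 in 1000 ppm CO minus 5% O2 (12.3%), 1000 ppm CO minus air (11.7%) and 5% O2 minus air (7.31%). Across all probes the adjusted threshold was passed by 4.46% in 3000 minus 1000 ppm CO, by 0.369% in 1000 ppm CO minus 5% O2, by 0.109% in 1000 ppm CO minus air and by 0.00621% in 3000 ppm CO minus air. It was passed by 0.0155, 0.0186 and 0.0124% at 2, 6 and 12 h minus 0 h and by 0% in 3000 ppm CO minus 5% O2 and in 5% O2 minus air. Few probes of any kind passed most of these contrasts, and a probe that did not pass may still have differed. Over 26 other fits, the lowest adjusted p of any phosphodiesterase probe was 0.0531, and the count stayed at 0 in each.

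For the genes with the low point on 5% O2 at 0 h, the model's intervals were wide. Pde10a differed by -1.25 ± 1.30 (standard error, SE) between 5% O2 and air, with a 95% interval from -4.31 to 1.81. Its difference between 3000 ppm CO and 5% O2 was 1.23 ± 0.82, and between 1000 ppm CO and 5% O2 1.21 ± 0.82. Without the 5% O2 array at 0 h, the difference from air turned to 0.60 for Pde10a, 0.38 for Pde1b, 0.19 for Pde2a, 0.15 for Pde7b and 0.19 for Pde8b, so leaving out that 1 array turned its sign. Without both low arrays it was -0.0074 for Pde10a, -0.057 for Pde1b, -0.26 for Pde2a, -0.30 for Pde7b and -0.22 for Pde8b, which is nearer 0 than with all 12 arrays. With slide as a fixed factor Pde10a was at -0.42 from air, Pde2a at -0.48, Pde7b at -0.10 and Pde8b at 0.08, and Pde1b remained at -0.85. The adjusted p of these differences from air lay between 0.859 and 0.886 in limma's fit.

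For Pde4d the differences of 2 h from 0 h in the model were -0.62 ± 0.13 for probe 1, -0.50 ± 0.13 for probe 2, -0.58 ± 0.17 for probe 3 and -0.56 ± 0.18 for probe 4 (SE). The unadjusted p-values from limma were 0.0022, 0.0055, 0.0099 and 0.0166, with an adjusted p of 0.971 for each, so none of the 4 passed the test. With normexp background correction they were -0.54, -0.41, -0.23 and -0.11, so those of probes 3 and 4 came much nearer to 0. Without both low arrays the difference of probe 1 was -0.57. At 12 h probe 3 was -1.12 ± 0.19 from 0 h, at an unadjusted p of 0.000572 and an adjusted p of 0.541 in limma's fit, where probes 1, 2 and 4 were at -0.52, -0.25 and -0.49, so the probes were further apart than at 2 h. With normexp background correction probe 3 was at -0.61 and probe 4 at -0.20. After 1000 ppm CO both hours lay on 1 slide, and after 3000 ppm CO on different slides.

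Taken within each exposure, probe 1 was 0.55, 0.60 and 0.72 below its 0 h level at 2 h, in the order of 1000 ppm CO, 3000 ppm CO and low oxygen. The other probes were 0.45, 0.33 and 0.71 (probe 2), 0.74, 0.26 and 0.73 (probe 3) and 0.51, 0.26 and 0.90 (probe 4) below theirs. The 0 and 2 h arrays of an exposure lay on 1 slide, so slide does not enter these differences. Tissue markers did differ between these hours, and their part was not tested. Summed medium spiny neuron signal went from 338.8 at 0 h to 464.1 at 2 h after 3000 ppm CO. After 5% O2 it went from 39.4 to 346.5, and after 1000 ppm CO from 609.7 to 568.9. That of septal, thalamic and hypothalamic markers went from 37.1 to 8.2, 140.5 to 33.0 and 9.6 to 10.1, in the same order. Of the 27929 probes above background on every array 17.4% were lower at 2 h in all 3 exposures, and of the 11 phosphodiesterase probes these were the 4 of Pde4d. The 4 probes carry 1 gene name, were read on the same RNA and are not 4 replicates. On the 6 h arrays, set against the same 0 h arrays, the 4 probes were also below 0 h in all 3 exposures, by 0.10 to 0.87. The share of all probes with that order was not computed, so the 6 h order does not set Pde4d apart from other genes. In the model's 6 h minus 0 h contrast, the highest value over the alternative fits was below 0 for probes 1 and 2 but was 0.06 for probe 3 and 0.30 for probe 4.

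**Figure D3:**
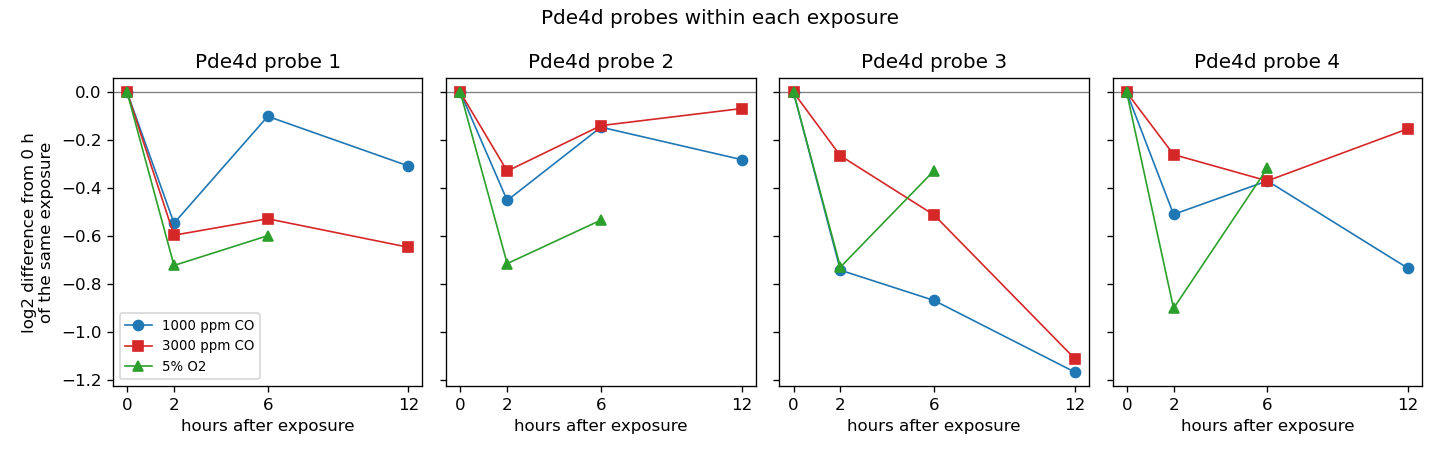
Log2 difference of each Pde4d probe from the 0 h array of the same exposure against hours after exposure, 1 rat per point. All points after 0 h lie below 0, with 2 h values from -0.26 to -0.90 and the lowest values, -1.17 and -1.11, for probe 3 at 12 h.

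The likeness of the phosphodiesterases to the medium spiny neuron markers was described with Pearson's r over the 12 arrays, which share slides, dissections and the 2 low arrays, so no p is given. With the mean level of the 15 markers, r was 0.984 for Pde10a, 0.978 for Pde2a, 0.978 for Pde1b, 0.884 for Pde7b and 0.867 for Pde8b. Over the 10 arrays without the low ones it was 0.925, 0.969, 0.944, 0.722 and 0.697. Pde10a, Pde2a and Pde1b thus followed these markers also among the arrays that did not stand apart, and Pde7b and Pde8b less closely. Pde4b had an r of 0.437 with and 0.740 without the low arrays, and Pde4a -0.249 and 0.624, so for these genes the 2 arrays set the sign or the size. The Pde4d probes lay between -0.697 and -0.017 over 12 arrays and between -0.427 and 0.321 over 10.

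**Figure D4:**
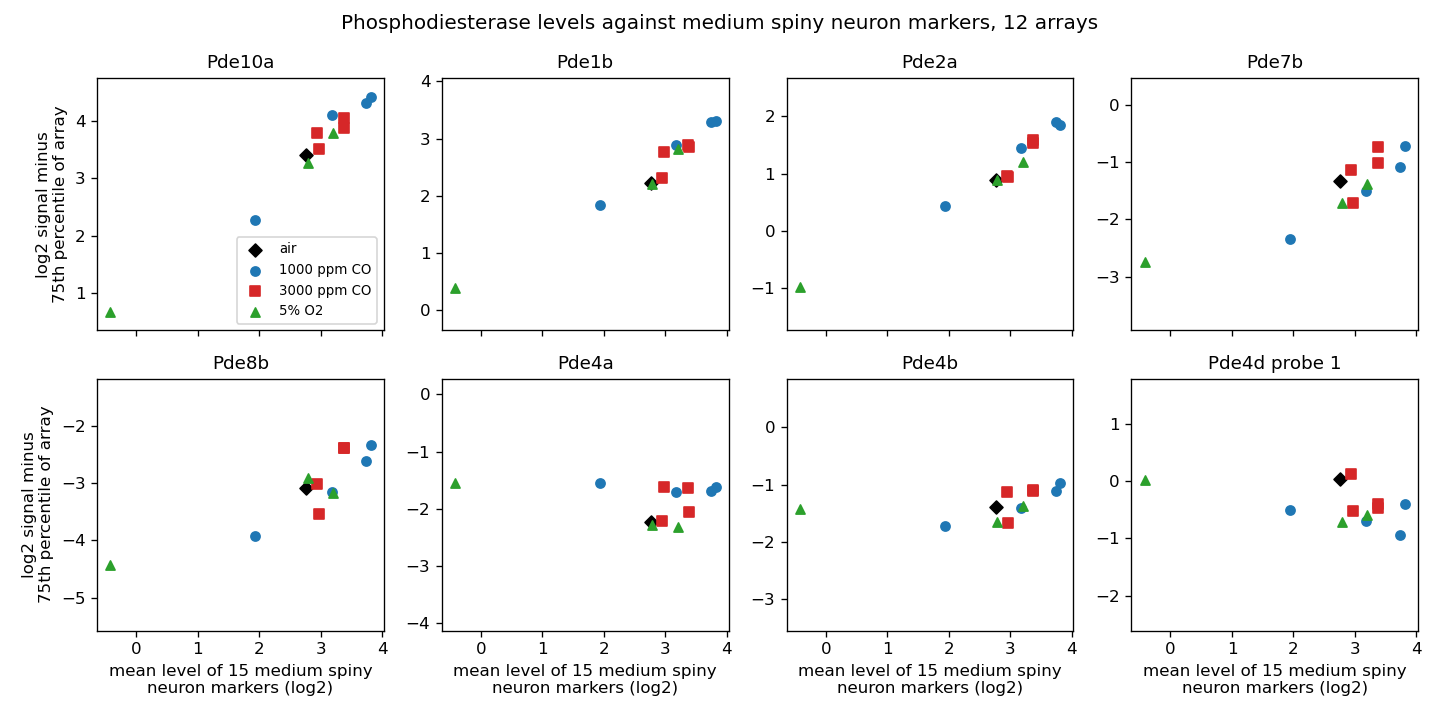
Level of each phosphodiesterase (log2) against the mean level of 15 medium spiny neuron markers (log2) on the 12 arrays, 1 rat per point, coloured by exposure. Pde10a, Pde1b and Pde2a lie along a line on which 5% O2 at 0 h and 1000 ppm CO at 6 h are the 2 lowest points, while Pde4a and Pde4d at those points are not low.

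Among themselves, Pde10a, Pde2a and Pde1b went together with and without the 2 low arrays. Some ties of the others, such as that of Pde7b with Pde10a, changed more, and those between Pde4d probes changed little. Over 12 arrays r was 0.975 for Pde2a with Pde10a and 0.970 for Pde1b with Pde10a, and 0.930 and 0.882 over the 10 arrays. Pde7b had an r of 0.914 with Pde10a over 12 arrays and 0.719 over 10, and of 0.954 and 0.859 with Pde8b. Pde4b was closest to Pde7b, at 0.761 over 12 and 0.960 over 10 arrays, and its r with Pde10a was 0.523 over 12 and 0.786 over 10. Over the 10 arrays Pde7b was thus closer to Pde4b than to Pde8b or Pde10a. The Pde4d probes had an r of 0.386 (probes 2 and 3) to 0.754 (probes 1 and 2) with each other over 12 arrays. Over 10 arrays it was 0.409 (probes 2 and 3) to 0.775 (probes 2 and 4).

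The 3 genes closest in pattern were taken for each member, by r over 12 arrays among 16230 probes with a gene symbol. For Pde10a they were Drd2, the D2 dopamine receptor (0.990, and 0.931 over 10 arrays), Mme, the peptidase neprilysin, and Lmo7. For Pde1b they were Tesc, Rasgrp2 and Ngef, each at 0.992, of which the last 2 encode guanine nucleotide exchange factors. Kcnh3, a potassium channel gene, Baiap2 and Fbxo39 were closest to Pde2a, and Ppp1r9a (neurabin, 0.995), Phyhip and Robo2 to Pde7b. Cplx2 (a complexin of synaptic vesicle release), Rasgef1a and Speg were closest to Pde8b. None of the 15 markers other than Drd2 was among these.

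The other Pde4 genes had other neighbours. Pde4a was closest to Snrpn (0.940), Syn1, which encodes the vesicle protein synapsin, and Cdh10, and Pde4b to Nlk (0.956), St6gal2 and Fam120a. Probe 1 of Pde4d was closest to Sec23a, a component of the vesicle coat of the endoplasmic reticulum (0.939, and 0.934 over 10 arrays), Cmas and Mfsd6.

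The remaining phosphodiesterase genes did not have the low point on 5% O2 at 0 h to the same extent, though some shared the order of arrays. Of 16 such genes 15 had a probe, 11 were above background on at least 3 arrays and 3, the photoreceptor genes Pde6a, Pde6b and Pde6c, on none. On the 5% O2 array at 0 h, 0 of these 11 were at least 2-fold lower than air, against 5.05% of all probes. That count is near the share and does not set these genes apart. Their median difference was -0.09, and the lowest were Pde5a, a cGMP-specific enzyme, at -0.97 and Pde1a at -0.69. Pde6h was 1.20 higher by 1 probe and 0.50 lower by the other, so its probes disagree. On the 1000 ppm CO array at 6 h, 1 of 11, Pde1a, was at least 2-fold lower (-1.19), against 6.99% of all probes. There Pde6h was 1.84 higher by the first and 0.45 higher by the second probe. Pde5a and Pde7a had the same 2 lowest arrays as Pde10a, as had 8.48% of all probes above background on every array. Pde5a was at -4.37 on 5% O2 at 0 h and -4.01 on 1000 ppm CO at 6 h, with 3000 ppm CO at 12 h also at -4.01. Pde7a was at -0.78 and -0.80 on these 2 arrays, and -0.69 in air. Pde3b (-2.85) and Pde6d (1.41) were lowest on 5% O2 at 0 h too. Pde9a, the cGMP-specific enzyme, ranged over 0.67 across the 12 arrays.

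The enzymes and proteins that make or read cyclic nucleotides were a list of 40 genes, of which 37 were above background on at least 3 arrays. On the 5% O2 array at 0 h their median difference from air was -0.10. There 6 of 37 were at least 2-fold lower (5.05% of all probes) and 2 higher, with 9.13% of all probes 2-fold in either direction. The lowest were Gng7, a G protein gamma subunit of medium spiny neurons (-3.41), and Ppp1r1b (-3.27), which is also among the 15 neuron markers, and the highest were the cyclase gene Adcy8 (1.52) and the cGMP-dependent kinase gene Prkg2 (1.33). On the 1000 ppm CO array at 6 h, 6 of 37 were at least 2-fold lower (6.99% of all probes) and 1 higher. Of all probes 9.63% were 2-fold from air there in either direction. The list was led by the anchoring protein gene Akap5 (-1.64), the transcription factor gene Creb1 (-1.32) and, upward, Adcy8 (1.11). In the model 1 of the 37 passed in 1 contrast, 3000 minus 1000 ppm CO, where 4.46% of all probes passed. Adcy7, a cyclase gene, was 0.57 ± 0.10 (SE) higher after 3000 than after 1000 ppm CO, at an adjusted p of 0.0261 in limma's fit. No slide held arrays of both CO concentrations, so concentration and slide cannot be told apart here.

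Promoter sequence was looked at because cAMP acts on genes through CREB, a factor that binds the cAMP response element. RefSeq windows of 250 bases before a transcript start, on build GRCr8, were at hand for 6 of the 8 genes, with 16 windows in all, and not for Pde1b and Pde7b. The core TGACG, searched on both strands (CGTCA on the other), was found in 5 of 16 windows, against 18.2% of all 33469 windows. The full element TGACGTCA, of which the core is a part, was in 0 of 16, against 1.59% of all. The windows of Pde10a and Pde4d with 2 matches each are shown, since these genes stand for the 2 patterns, with the matches in capitals.
Pde10a, chr1:54765669-54765918, minus strand: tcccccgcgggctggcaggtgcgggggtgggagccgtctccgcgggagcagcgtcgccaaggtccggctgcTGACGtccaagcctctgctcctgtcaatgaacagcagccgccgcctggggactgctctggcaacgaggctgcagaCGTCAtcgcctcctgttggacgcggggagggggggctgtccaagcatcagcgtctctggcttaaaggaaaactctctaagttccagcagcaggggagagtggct
Pde4d, chr2:42592499-42592748, plus strand: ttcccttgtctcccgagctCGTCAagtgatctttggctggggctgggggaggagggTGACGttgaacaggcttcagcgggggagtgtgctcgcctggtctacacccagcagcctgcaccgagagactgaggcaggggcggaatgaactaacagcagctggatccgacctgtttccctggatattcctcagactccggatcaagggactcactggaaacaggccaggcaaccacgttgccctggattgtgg
In the Pde10a window the matches begin 179 and 104 bases before the transcript start, and in the Pde4d window 231 and 194 bases before it. A match is a run of letters and not a binding site. No protein or DNA occupancy was measured here.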

How the data were processed

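Per the file headers, Agilent Feature Extraction 10.7.3.1 read the spots. The deposited processed signal is, per the file headers, an intensity with background subtracted and no scaling between arrays. The deposited mean and background signals are raw intensity values, and flag columns mark dim, outlying and saturated spots. The deposited series table is in log2 and follows log2 processed signal (lowest r 0.9999 over 40998 probes), centred on each array's median. Here log2 processed signal minus each array's 75th percentile was used. Outlying spots were left out, and 14 of 41012 probes without a usable spot on every array were dropped. Names were updated through a RefSeq table (assembly GRCr8): 17685 probes by accession, 3095 by symbol and 535 by synonym, with 19683 kept as in the file.

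The additive model (exposure and time, 12 arrays, 5 residual degrees of freedom, prior 2.19) was fitted with limma 3.58.1 in R 4.3.3 to 32230 probes well above background on at least 3 arrays. Its tests were two-sided, adjusted with Benjamini-Hochberg over all of them, with a threshold of 0.05. The single air array was assumed to vary like the others. An interaction of the factors, if any, is part of the residual. Differences from air were computed over probes well above background on either array, with a dim array set to its floor, and a marker gene was read by 1 probe. The fold threshold was 2. Python 3.11.15 was used, with pandas 2.3.3 and numpy 2.4.6 for tables and matplotlib 3.10.9 for plots. Arrays lay on 3 slides: air with 3000 ppm CO at 0, 2 and 6 h, all 1000 ppm CO arrays, and 3000 ppm CO at 12 h with all 5% O2 arrays. The slide with the air array was scanned in 1 session and the other slides in another. The number of arrays limits the precision.

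The alternatives were normexp background correction (offset 50), quantile normalization, median centring, the deposited series table, stricter and no filters on dim probes, the brightest probe of each gene, slide as a fixed factor or random block, eBayes with trend and robust options, fewer factors or times, arrays left out, other folds and the median array as reference. Differences within single exposures were added after seeing the data. The members, lists (other phosphodiesterases, cyclic nucleotide enzymes and effectors, and markers of medium spiny neurons, choroid plexus, neighbouring and cortical neurons, glia, endothelium and blood) and tests were chosen with earlier results of these data known. All members were named, and of the lists the genes that passed the model, the 2 highest and 2 lowest on an array described and the defining markers, with the 3 genes closest in pattern to each member.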

Additional observations from a re-analysis of the deposited data

Results flagged for a closer look

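Between 0 and 6 h the same genes went opposite ways in 2 exposures, and each such difference was not tested, since every point is 1 rat. Pde10a was 3.12 higher (log2) at 6 h than at 0 h after 5% O2 and differed by -2.15 after 1000 ppm CO. Pde1b differed by 2.42 and -1.47, Pde2a by 2.18 and -1.41, Pde7b by 1.37 and -1.62, and Pde8b by 1.25 and -1.60, in the same order. The 2 arrays low in medium spiny neuron markers are the 0 h array of the one exposure and the 6 h array of the other. The summed marker signal differed between the same arrays, from 39.4 to 420.5 after 5% O2 and from 609.7 to 160.4 after 1000 ppm CO, and its part in these differences was not tested.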

How the results depend on the processing

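No paired analysis was possible because the labels give no replicate numbers and each group is 1 rat. The count of phosphodiesterase probes called in the additive model was 0 as reported and in all 26 other fits. The count of differences of at least 2-fold from air was 11 as reported, 38 at 1.5-fold, 3 at 3-fold, 6 against the median of the 12 arrays and 4 without both arrays low in medium spiny neuron markers. Leaving out 1 array in turn gave 6 to 11, with 6 without 5% O2 at 0 h. Of the single differences, 513 alternative values kept their sign and side of the threshold within the spread, 15 moved and 7 reversed. Leaving out 1 array in turn, the difference of 5% O2 from air lay between -1.32 and 0.38 for Pde1b, -1.35 and 0.19 for Pde2a, -1.04 and 0.15 for Pde7b, -1.01 and 0.19 for Pde8b, and -1.87 and 0.60 for Pde10a, with each positive value coming without 5% O2 at 0 h. Pde8b in that contrast was 0.0829 with slide as a fixed factor. With normexp background correction Pde7b on 1000 ppm CO at 6 h was 0.19 from air, where the dimmest probes of that array had a median of 1.87. The cause was not tested.

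Each group is 1 rat, with no air rat after 0 h, and tissue markers differed widely between dissections. The 1000 ppm CO arrays fill 1 slide, so that exposure cannot be told apart from its slide. All 11 probes were above background on every array, but Pde8b and Pde4d probes 3 and 4 were dim, and their values depended most on the background correction.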
